A study of Mus musculus with 8 samples.

Results

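Protocadherins are adhesion proteins of the cadherin superfamily, and the members studied here were the genes whose symbol starts with Pcdh and that have a probe set naming that gene alone. This rule found 34 of the 19938 genes measured. Of these, 22 belonged to the beta cluster (Pcdhb) and 12 were non-clustered protocadherins. The alpha and gamma clusters (Pcdha and Pcdhg) gave 0 members each. Their isoforms share constant exons, and the probe set found for the alpha cluster names 14 genes together, so no single alpha isoform could be read. The 22 Pcdhb genes are all those that the gene table of GRCm38.p6 lists, and so are the 12 non-clustered ones.

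The arrays profiled RNA of cortical layers II-IV that was cut out by laser from 8 mouse pups at postnatal day 5, with 1 array per pup. The 4 control pups carried floxed Bcl6 alleles and no Cre (Bcl6 flox/flox;Nex +/+). The 4 mutant pups carried the same floxed alleles with a copy of Cre in the Nex locus (Bcl6 flox/flox;Nex Cre/+). Both groups therefore share the floxed alleles, and the mutants also lack an intact copy of Nex, which is another name for Neurod6. Nex drives Cre in excitatory neurons of the cortex, so other cell types of the captured tissue are not its targets. The comparison asks which transcripts differ in these layers between the genotypes, where BCL6, a transcriptional repressor, is targeted in the mutants. By genotype, every mutant and no control has Cre, targeted Bcl6 and the lack of an intact Nex copy together. These cannot be told apart in this design.

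In vertebrate neurons the clustered protocadherins work as a surface code. Each neuron switches on a small set of isoform promoters, through DNA methylation, CTCF and cohesin, and the resulting combinations bind only to matching combinations on other membranes. This lets the branches of a neuron recognise each other and stay apart. The non-clustered delta-protocadherins each have their own promoter and are expressed in patterns that mark cortical layers, areas and circuits. They bind weakly in the same way, and their cytoplasmic tails recruit actin regulators and phosphatases.

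All values are log2 levels as deposited, and a difference is mutant minus control on that scale. Probe sets differ in affinity, so levels of different genes were not ranked. No protocadherin rose or fell past the threshold of limma (adjusted p under 0.05 over all genes): 0 of 34 members were called, against 13 genes or 0.0652% of all genes tested (0.0502% higher and 0.015% lower). Without adjustment, 6 members had a p under 0.05, of which 4 were higher and 2 lower, or 17.6% of the 34 against 4.91% of all genes (1.64% higher and 3.28% lower). In 5 members, or 14.7%, the 4 mutant values did not overlap the 4 control values, against 2.75% of all genes (0.963% higher and 1.79% lower). All 5 were non-clustered: Pcdh20, Pcdh7 and Pcdh18 were higher in mutants, and Pcdh15 and Pcdh19 were lower. Centring each array on its median left 3 of these 5 without overlap, the 3 higher ones.

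**Figure D1:**
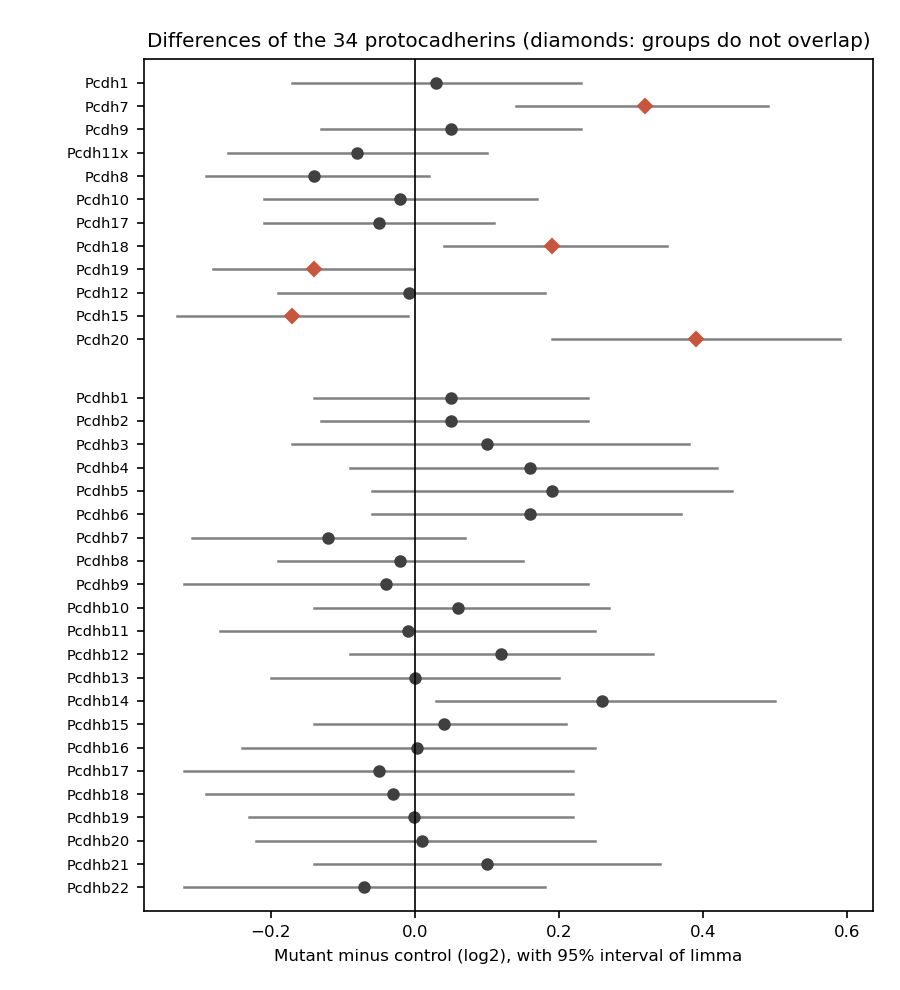
Each protocadherin's log2 difference, mutant minus control (x axis), for all 34 genes (y axis), with the 95% interval of limma as a line. Red diamonds mark the 5 genes whose mutant and control values do not overlap, from -0.17 in Pcdh15 to 0.39 in Pcdh20, and no gene passed the threshold over all genes.

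Before these genes are described, the 2 engineered loci and the make-up of the groups need stating. Bcl6 read higher in every array labelled mutant than in any control: 6.40 ± 0.18 (SD, n = 4) in controls and 6.78 ± 0.14 in mutants. The difference was 0.37 ± 0.10 (SE), and the exact permutation p was 0.0286 (two-sided). The sources used here do not place its probes relative to the deletion, so they check neither the deletion nor the labels. Neurod6 read 9.22 ± 0.13 in controls and 8.83 ± 0.17 in mutants, with no overlap (exact permutation p = 0.0286, two-sided, the smallest that 4 against 4 allow). Xist was 9.78 and 9.76 in mutant replicates 1 and 4 and at most 3.41 in the other arrays, so 2 of the 4 mutants and none of the controls showed this transcript of the inactive X chromosome. The Y-linked gene Eif2s3y read 2.80 and 2.29 in those 2 mutants and 7.39 to 7.79 in the other arrays. By these transcripts, sex was not balanced between the genotypes. Genes of excitatory neurons were bright in every array, with a mean over 9 markers of 9.13 to 9.43 in controls and 9.18 to 9.38 in mutants.

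Pcdh20 showed the largest difference between genotypes of all 34 members. It lies outside the delta subfamilies and is known for helping layer IV neurons take their place in the cortex. Here and below, 4 values of a genotype are given from replicate 1 to 4. The control levels were 7.80, 7.60, 7.71 and 7.42, and the mutant levels 8.15, 8.09, 7.98 and 7.87. Every mutant lay above every control, and the lowest mutant stood close to the highest control. The difference was 0.39 ± 0.09 (SE; 95% interval 0.19 to 0.59), or 1.31-fold, with an adjusted p in limma of 0.491. The exact permutation p was 0.0286 (two-sided), the value of every gene whose 4 mutants and 4 controls do not overlap. Over 22 alternative settings the difference stayed between 0.32 and 0.45, and the adjusted p between 0.224 and 0.9996, so the call was not reached in any of them.

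Pcdh7, a delta-1 protocadherin whose cytoplasmic tail binds a protein phosphatase, was next in size. Its controls lay at 8.82, 8.86, 8.80 and 8.58 and its mutants at 9.16, 9.16, 9.07 and 8.95. Again the groups were apart, with 3 of the 4 controls lying within a narrow band. The difference was 0.32 ± 0.08 (SE; 95% interval 0.14 to 0.49), or 1.25-fold, with limma's adjusted p at 0.6355. Replicate 4 was the lowest array of its genotype for both Pcdh7 and Pcdh20.

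Rorb, a transcription factor gene that marks layer IV, was also lowest in control replicate 4 (9.35, against 10.32 to 10.50 in the other controls) and in mutant replicate 4 (9.81, against 10.33 to 10.50). This was not particular to Rorb: Cux1, Cux2 and Neurod2 were lowest in the same arrays (Cux2 at 8.42 in control and 8.69 in mutant replicate 4). Tbr1, Neurod6, Slc17a7, Nrgn and Camk2a were not lowest in replicate 4 of both genotypes. Between genotypes Rorb differed by 0.10 ± 0.23 (SE), and the 9 excitatory neuron markers had a median difference of 0.017, with 5 higher and 4 lower (Neurod6 the lowest, and Tbr1 at 0.17 ± 0.07). Neurod6 and Tbr1 were the 2 at an unadjusted p under 0.05 and the 2 without overlap (22.2% each, against 4.91% and 2.75% of all genes). Neurod6 is the locus that carries Cre in the mutants, so its value is not a separate reading of excitatory neurons. Without it, Tbr1 alone of these markers was at that p or without overlap. Whether the share of layer IV tissue in each capture bears on Pcdh20 and Pcdh7 was not tested. In tissue of mixed cells, fewer cells of a type and less RNA per cell cannot be told apart.

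Pcdh18, a delta-2 protocadherin that binds the adaptor Dab1 of the reelin pathway, was higher in mutants by 0.19 ± 0.07 (SE; adjusted p in limma 0.932). Its controls were the tightest of all members, at 6.79, 6.83, 6.84 and 6.83. Its mutants read 7.18, 6.94, 7.0 and 6.94, so that all 4 lay above, with mutant replicate 1 furthest. Without mutant replicates 1 and 4, the arrays with high Xist, the difference was 0.15 ± 0.08 (SE). For Pcdh20 and Pcdh7 the same fit gave 0.40 ± 0.11 and 0.35 ± 0.10.

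Pcdh15 and Pcdh19 were the members whose mutant values all lay lower. Pcdh15 is a strand of the tip link that opens the transduction channel of hair cells, and in brain it is a marker of oligodendrocyte precursors. Levels were 5.39, 5.54, 5.53 and 5.37 in the controls, against 5.36, 5.29, 5.15 and 5.35 in the mutants. The groups were apart by less than the spread within either, and the difference was -0.17 ± 0.07 (SE; limma adjusted p = 0.99). A second Pcdh15 probe set overlapped between genotypes and differed by -0.08 ± 0.07 (SE).

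Oligodendrocyte markers gave these values beside Pcdh15. Of 9 in the list 7 were higher and 2 lower in mutants, with a mean level of 5.79 to 5.94 over control arrays and 5.90 to 5.99 over mutant arrays. Pdgfra and Cspg4, which define the precursors, differed by 0.10 ± 0.10 and 0.07 ± 0.09 (SE). Bcas1 and Cnp, of maturing oligodendrocytes, were higher by 0.24 ± 0.07 and 0.23 ± 0.07 (adjusted p in limma 0.759 and 0.844). Bcas1 read 3.92 in controls and 4.16 in mutants, below the median control level of 5.56 over all genes. Cnp read 6.19 and 6.41. These 2 of the 9 were at an unadjusted p under 0.05 and without overlap (22.2% each, against 4.91% and 2.75% of all genes). The 2 lower genes were Mbp at -0.10 ± 0.06 and Olig2 at -0.01 ± 0.09, and Enpp6 differed by 0.03 ± 0.07 (SE). The part of these markers in the Pcdh15 values was not tested.

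Pcdh19 is an X-linked delta-2 protocadherin that acts with N-cadherin, and its loss in humans causes an epilepsy of females. The control pups gave 7.48, 7.60, 7.64 and 7.58, and the mutant pups 7.48, 7.46, 7.45 and 7.37. The highest mutant and the lowest control met within rounding. The difference of -0.14 ± 0.06 (SE; limma adjusted p = 0.9995) was -0.12 ± 0.08 without the mutants of high Xist. Pcdh11x, the other X-linked member, read 8.02 to 8.33 in controls and 8.06 to 8.24 in mutants. In mutant replicates 1 and 4 it read 8.24 and 8.11, against 8.06 and 8.23 in the other mutants.

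**Figure D2:**
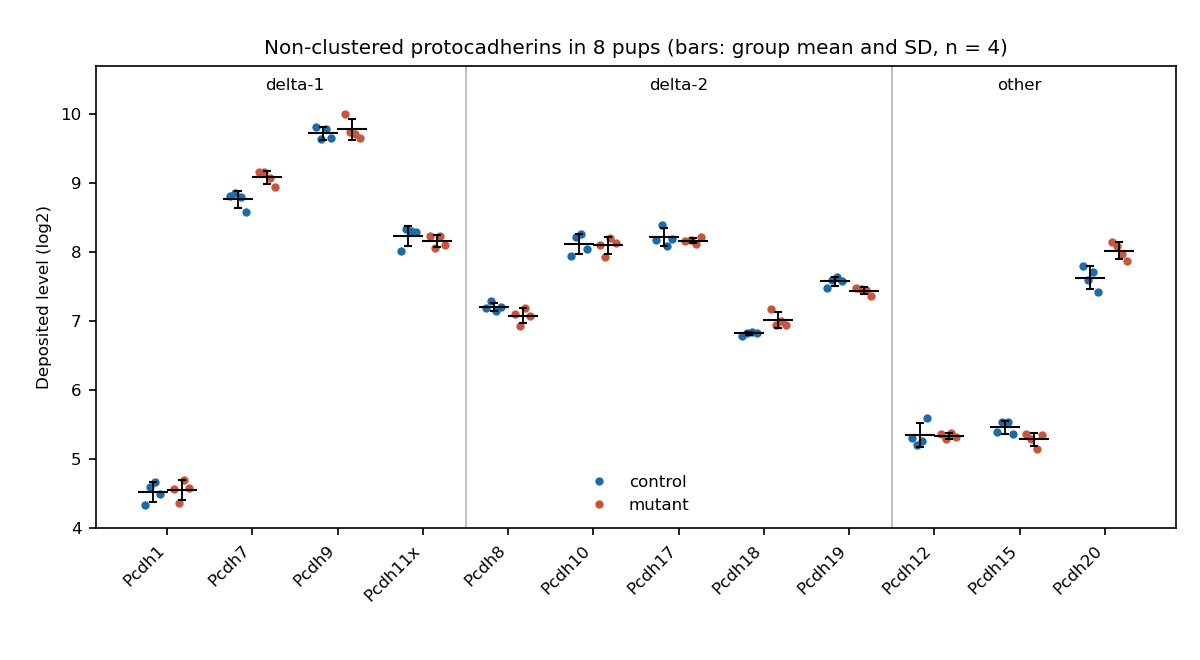
Deposited log2 level (y axis) of the 12 non-clustered protocadherins (x axis, by subfamily), where points are the 4 pups of each genotype and bars show mean and SD. Pcdh20, Pcdh7 and Pcdh18 have all mutant points above all control points, Pcdh15 and Pcdh19 have theirs at or below the lowest control, and the other 7 genes overlap.

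The promoters of the 5 genes without overlap are shown because BCL6 is a DNA-binding repressor and these windows can be searched for its motif. Windows of 300 bases, from 250 before to 50 after the start, were taken from RefSeq (GRCm38.p6), which matched 9 of the 34 members, all non-clustered. They were chr14:88471347-88471646 (minus strand) for Pcdh20, chr5:57717831-57718130 (plus strand) for Pcdh7, chr3:49757267-49757566 (minus strand) for Pcdh18, chr10:73821617-73821916 (plus strand) for Pcdh15 and chrX:133688944-133689243 (minus strand) for Pcdh19. Each is printed 5′ to 3′ along its gene, and capitals mark CCAAT boxes on either strand (CCAAT or its complement), of which Pcdh7 has 0.
Pcdh20: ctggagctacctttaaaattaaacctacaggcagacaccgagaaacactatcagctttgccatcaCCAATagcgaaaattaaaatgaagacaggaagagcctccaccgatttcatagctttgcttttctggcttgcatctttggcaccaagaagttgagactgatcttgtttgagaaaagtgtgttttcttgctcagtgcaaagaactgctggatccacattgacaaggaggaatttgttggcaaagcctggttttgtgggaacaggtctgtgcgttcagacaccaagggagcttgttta
Pcdh7: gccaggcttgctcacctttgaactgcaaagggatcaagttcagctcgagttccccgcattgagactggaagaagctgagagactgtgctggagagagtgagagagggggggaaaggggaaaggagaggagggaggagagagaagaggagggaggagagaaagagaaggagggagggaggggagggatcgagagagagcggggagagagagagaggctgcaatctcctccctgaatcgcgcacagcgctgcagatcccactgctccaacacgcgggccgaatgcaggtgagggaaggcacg
Pcdh18: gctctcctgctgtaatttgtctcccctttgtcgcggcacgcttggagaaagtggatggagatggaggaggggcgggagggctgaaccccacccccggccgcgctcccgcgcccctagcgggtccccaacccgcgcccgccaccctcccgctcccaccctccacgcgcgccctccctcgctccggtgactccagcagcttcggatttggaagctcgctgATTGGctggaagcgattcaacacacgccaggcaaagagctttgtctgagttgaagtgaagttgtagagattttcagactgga
Pcdh15: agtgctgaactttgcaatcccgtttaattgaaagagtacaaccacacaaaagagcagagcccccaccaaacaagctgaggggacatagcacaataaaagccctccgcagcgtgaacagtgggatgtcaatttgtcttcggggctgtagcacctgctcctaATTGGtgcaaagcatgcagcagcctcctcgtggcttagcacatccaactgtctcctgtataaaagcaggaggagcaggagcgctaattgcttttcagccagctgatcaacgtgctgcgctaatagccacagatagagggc
Pcdh19: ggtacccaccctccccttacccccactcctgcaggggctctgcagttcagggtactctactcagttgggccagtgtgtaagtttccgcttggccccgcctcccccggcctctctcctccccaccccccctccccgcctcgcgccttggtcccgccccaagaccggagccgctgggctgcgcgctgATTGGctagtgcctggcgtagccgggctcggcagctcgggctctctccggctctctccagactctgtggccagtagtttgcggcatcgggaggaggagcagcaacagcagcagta

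The sequence TTCNNNGAA, the palindrome shared by BCL6 and STAT sites, was in 0 of the 10 windows of these 9 genes, against 8.3% of all 32851 promoter windows. That says only that these letters are not in these windows. CCAAT, searched on both strands, was in 9 of the 10 windows, those of every gene but Pcdh7, against 37.4% of all windows. TATAAA, also searched on both strands, was in Pcdh15 and Pcdh8, against 13.6% of all. Pcdh20 had the lowest GC content of the 10 windows (43.7%) and Pcdh19 the highest (67.7%), around a median of 52.7% over all windows. All 3 motifs were chosen after the levels were seen, none contains another, and none of these matches is a tested site.

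The other 7 non-clustered genes overlapped between genotypes. Among delta-1 genes, Pcdh9, which is widely expressed in cortical neurons, had means of 9.73 in controls and 9.78 in mutants (0.05 ± 0.08, SE). Its second probe set gave 0.03 ± 0.08. Pcdh1, best known from epithelia, read 4.52 ± 0.14 (SD, n = 4) and 4.55 ± 0.14. Pcdh11x differed by -0.08 ± 0.08. In these 3 genes the difference was no larger than its own SE.

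Among delta-2 genes, Pcdh8, the activity-induced arcadlin that draws N-cadherin off the synaptic membrane, came nearest to a separation. Controls stood at 7.19, 7.29, 7.15 and 7.21, mutants at 7.11, 6.93, 7.19 and 7.07. Mutant replicate 3 alone reached into the control range, and the difference was -0.14 ± 0.07 (SE; 95% interval -0.29 to 0.02; limma adjusted p = 0.9995). Pcdh10, which takes part in axon growth and in synapse removal, differed by -0.02 ± 0.09. Pcdh17, of corticobasal ganglia synapses, differed by -0.05 ± 0.07, with intervals of -0.21 to 0.17 and -0.21 to 0.11 for the pair. Pcdh12, a protocadherin of endothelium, read 5.34 ± 0.18 (SD, n = 4) in controls and 5.34 ± 0.04 in mutants. The 9 endothelial markers had a median difference of 0.087, with 8 higher and 0 at an unadjusted p under 0.05 (Flt1 0.14 ± 0.08 and Slc2a1 0.11 ± 0.07, SE).

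By subfamily, 3 of 4 delta-1 genes were higher in mutants and 4 of 5 delta-2 genes were lower, with medians of 0.040 and -0.048, where 44.6% of all genes were higher. These counts include Pcdh1, Pcdh9, Pcdh10 and Pcdh17, whose differences were smaller than their SE. The median of all 12 non-clustered genes was -0.014, against -0.0096 for all genes tested. The median size of their differences was 0.106, against 0.051 over all genes, while the median SE was 0.081 against 0.079.

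In the beta cluster the counts of genes that differed were near those of all genes, and values spread widely between pups of the same genotype. Pcdhb genes are single-exon isoforms that lie side by side on chromosome 18 and have no constant exons. Of the 22, 13 were higher and 9 lower in mutants, 0 were called, 1 reached an unadjusted p under 0.05 (4.55%, against 4.91% of all genes) and 0 were without overlap (against 2.75% of all genes). Their median difference was 0.025, and 15 of the 22 differed by less than 0.1. The intervals of limma held 0 in 21 of the 22, and over the 22 they ran from -0.32 to 0.50 at their ends.

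Pcdhb14 was the gene with the smallest p. Its control values were 5.01, 5.25, 4.92 and 4.92, and its mutant values 5.55, 5.13, 5.10 and 5.37. Mutant replicates 1 and 4 stood above all controls, while the other mutants lay within the control range. The difference of 0.26 ± 0.11 (SE; limma adjusted p = 0.988) was 0.09 ± 0.11 without mutant replicates 1 and 4, the 2 arrays with high Xist. Pcdhb5 followed the same arrays. It read 6.88, 7.22, 6.83 and 6.84 in controls and 7.29, 6.88, 7.01 and 7.34 in mutants, a difference of 0.19 ± 0.12 that was 9.7e-05 without those 2 mutants. With the Y-linked genes as a covariate the differences were 0.10 and 0.0073. Pcdhb6 did not follow those arrays, and differed by 0.16 ± 0.10 with all arrays and by 0.24 ± 0.12 without them. Whether sex bears on Pcdhb14 and Pcdhb5 was not tested beyond these fits.

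The remaining 19 Pcdhb genes differed by -0.12 (Pcdhb7) to 0.16 (Pcdhb4), and each had an unadjusted p of at least 0.189. Pcdhb1, which sits at the start of the cluster and apart from the rest, read 3.52 ± 0.05 (SD, n = 4) in controls and 3.57 ± 0.19 in mutants. The other 21 had control means from 5.03 (Pcdhb14) to 6.94 (Pcdhb5). Pcdhb16, known from retinal synapses, read 6.22 to 6.64 in controls and 6.21 to 6.66 in mutants, nearly the same range in both.

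The spread between pups of a genotype was wider in the beta cluster than in most genes. The median SD within groups was 0.190 for Pcdhb, 0.119 for non-clustered members and 0.113 for all genes, and 21 of the 22 Pcdhb genes lay above that last value. The mean level of the cluster per control pup was 6.04, 6.18, 5.90 and 5.95, and per mutant pup 6.20, 6.04, 5.97 and 6.04. Control replicate 2 and mutant replicate 1 were the high arrays and control replicate 3 the lowest, so high and low pups were found in both genotypes. In mutant replicate 1, 9 Pcdhb genes had their highest value of the 8 arrays and 0 their lowest. In control replicate 3, 8 had their lowest and 0 their highest. Over all 19938 genes, mutant replicate 1 was highest for 3210 and lowest for 2942. Control replicate 3 was lowest for 2292 of them and highest for 1804. The mean level of the 12 non-clustered genes was 7.26 to 7.41 over the 8 arrays.

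**Figure D3:**
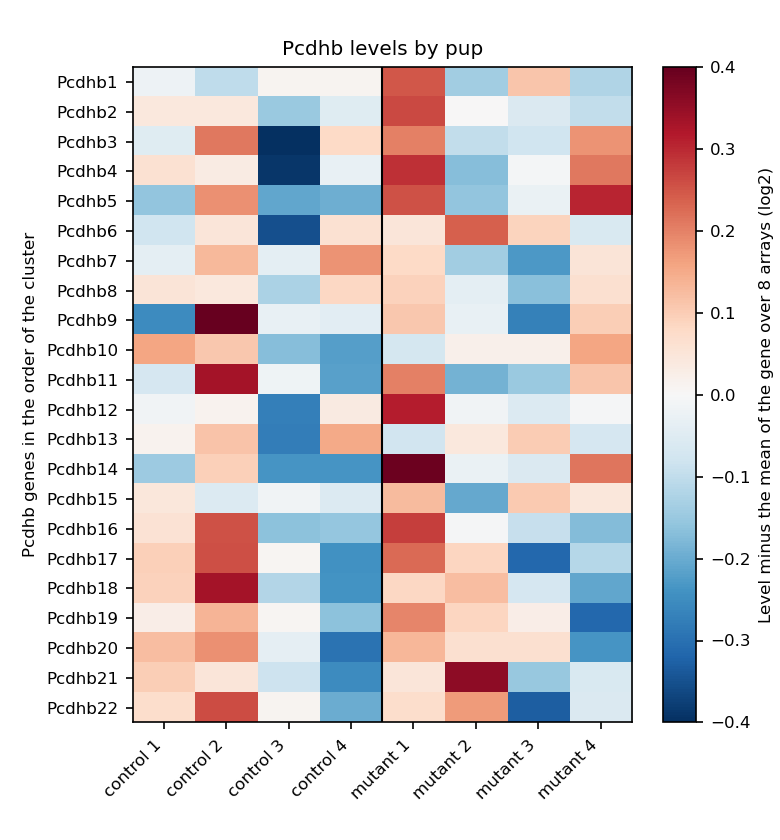
Level of each Pcdhb gene (y axis, in the order of the cluster) in each pup (x axis), coloured by its log2 distance from the mean of that gene over the 8 arrays. Control replicate 2 and mutant replicate 1 are red in most genes, control replicate 3 is blue in most, and control and mutant replicate 4 are blue in the last part of the cluster.

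Among pups, deviations of neighbouring Pcdhb genes correlated more closely than those of distant ones. After each group mean was taken away, the median correlation over the 8 arrays was 0.53 for 21 pairs of neighbours and 0.45 for 74 pairs 2 to 5 places apart. It was 0.32 for 70 pairs 6 to 10 places apart and 0.21 for 66 pairs over 10 places apart. Of Pcdhb genes with all genes that are no member the median was 0.07, and among the 12 non-clustered genes it was 0.15. These are descriptions with no test: all pairs share the same 8 arrays, and each gene enters many pairs. Pcdhb genes are close paralogs, and the sources used here do not say whether some probes read more than 1 of them, so the values of single Pcdhb genes are uncertain.

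**Figure D4:**
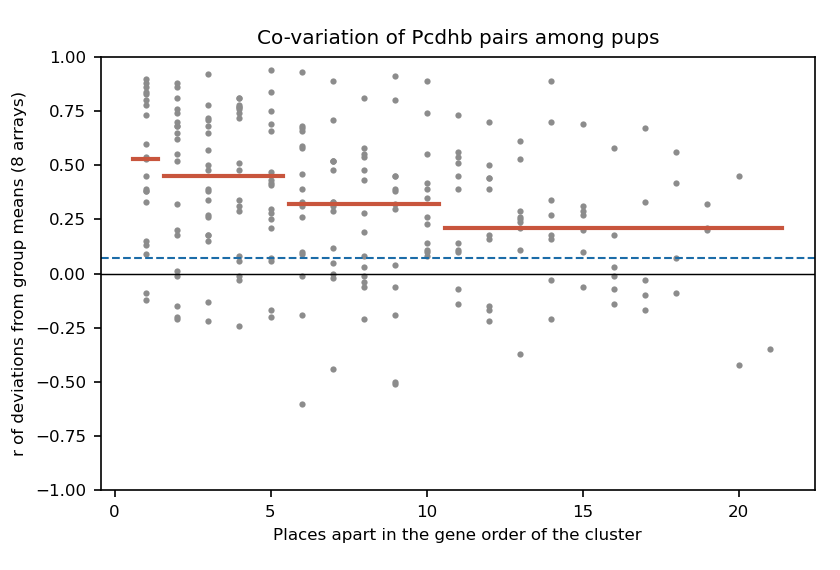
Correlation of deviations from group means over 8 arrays (y axis) for each of the 231 pairs of Pcdhb genes, by the number of places between them in the cluster (x axis). Red bars are medians over the 4 distance classes, falling from 0.53 to 0.21, and the dashed line is the median of 0.07 of Pcdhb genes with genes that are no member.

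The 2 ends of the cluster parted in some pups. In mutant replicate 4 the first 11 genes lay 0.08 above their own means, on average, and the last 11 lay 0.09 below. In mutant replicate 2 the order was turned, at -0.06 and 0.06. In control replicate 3 both lay below, at -0.17 and -0.11, and in mutant replicate 1 both lay 0.16 above. These 2 sets of 11 follow the gene order and were formed after the values were seen.

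Genes that work with protocadherins were read from 5 lists of 77 genes in all, of which 70 were measured. None was called in limma (against 0.0652% of all genes), and 1 of the 70 reached an unadjusted p under 0.05 (against 4.91% of all genes). The 23 genes of isoform choice and cluster chromatin, which hold Ctcf, cohesin and DNA methyltransferases, had a median difference of -0.013, with 10 higher and 13 lower. Smchd1, a chromatin silencer of the clusters, differed by -0.13 ± 0.08 (SE) and Rad21, a cohesin subunit, by -0.07 ± 0.06. The 7 genes of shedding and gamma-secretase, which cut the clustered protocadherins at the membrane, had a median of -0.0062, with Ncstn at -0.09 ± 0.07 and Aph1a at 0.08 ± 0.08.

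Partners at the membrane and in the cytoplasm had no gene at an unadjusted p under 0.05. Their 23 genes, among them those of the WAVE complex that drives actin branching, had a median of -0.0061, and its subunits Nckap1 and Abi1 each differed by -0.09 ± 0.07 (SE). The giant and seven-pass cadherins were the list with the widest median, 0.087, and 8 of 9 were higher in mutants, against 44.6% of all genes. Their mean level per array was 7.26 to 7.69 in controls and 7.46 to 7.60 in mutants, so the mutant range lay inside that of the controls. Control replicate 4 was the lowest array for Fat1, Fat3, Fat4, Dchs1, Celsr2 and Celsr3. The lower gene was Celsr1, at -0.18 ± 0.10 (SE). Fat1, a giant cadherin that organises the cytoskeleton, read 6.80 ± 0.22 (SD, n = 4) in controls and 7.03 ± 0.10 in mutants, a difference of 0.23 ± 0.10 (SE; limma adjusted p = 0.989). Its ranges of 6.52 to 7.04 and 6.93 to 7.17 overlapped. Fat2 was without overlap, at 4.30 ± 0.08 in controls and 4.44 ± 0.06 in mutants (SD, n = 4), though the nearest values met within rounding (0.14 ± 0.07, SE). It was the 1 gene of its list without overlap (11.1%, against 2.75% of all genes), and the other partner lists had 0. The 8 measured genes of the Pcdh15 tip link had a median of -0.032, with Ush1c at -0.11 ± 0.07 and Tmie at -0.08 ± 0.07. Levels in this tip link list were mostly low: control means ran from 3.01 to 6.85 with a median of 4.60, against 5.56 over all genes.

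Markers of the other cell types in the tissue gave the following beside these results, where 44.6% of all genes were higher in mutants and 4.91% were at an unadjusted p under 0.05. Astrocyte markers had a median difference of 0.033 (8 of 10 higher) and interneuron markers of 0.011 (7 of 10 higher), with Fgfr3 at 0.12 ± 0.07 (SE), Gfap at -0.11 ± 0.06, Reln at 0.17 ± 0.07 and Calb2 at 0.24 ± 0.11. Microglia markers had a median of -0.114 (2 of 9 higher), with Fcer1g at -0.29 ± 0.10 and P2ry12 at -0.27 ± 0.10. Mural, fibroblast and meningeal markers had a median of -0.057 (3 of 10 higher), with Dcn at -0.55 ± 0.25 and Pdgfrb at 0.14 ± 0.08. Dcn read 4.61 in control replicate 1, against 3.20 to 3.54 in the other controls and 2.72 to 3.34 in mutants. Gfap was the 1 gene of these 4 lists without overlap (10% of the astrocyte list, against 2.75% of all genes). None of these 4 lists had a member called in limma, and 2 interneuron, 2 microglia and 1 mural or meningeal gene were at an unadjusted p under 0.05. Their part in the protocadherin values was not tested.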

How the data were processed

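Total RNA of laser-microdissected layers II-IV of 8 pups was measured on Affymetrix arrays (Mouse Gene 1.0 ST). The authors deposited a log2 value for each of 35556 probe sets in every array, made with BRB-ArrayTools per the labels. The sources used here do not give the background correction, normalization or version. The scale was read from the values (0.74 to 13.63). Array medians were 4.94 to 5.01 and correlations between arrays 0.9904 to 0.9939. The table holds no detection calls, and the number of arrays limits the precision.

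Probe sets were named from the platform annotation, with symbols updated by Entrez identifier: 21789 named 1 gene, 1621 several, and 12146 had no name there. For each gene the probe set of highest mean was kept, which left 19938 genes. limma 3.58.1 (R 4.3.3; lmFit and eBayes, genotype only, two-sided) was fitted to all 8 arrays, with Benjamini-Hochberg adjustment over all genes and 95% intervals. It was tested on simulated data. Single genes were also tested by an exact permutation test (scipy 1.17.1).

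The members and lists were chosen with earlier results of these data known. Named were all non-clustered members, the 3 Pcdhb genes of smallest p, members at an unadjusted p under 0.05 or without overlap, the 2 genes of smallest p of a list, and some chosen after their values were seen (Rorb, Pdgfra, Cspg4, Pcdhb1, Pcdhb4, Pcdhb7, Pcdhb16). Others chosen that way were Cux1, Cux2, Neurod2, Slc17a7, Nrgn, Camk2a, Mbp, Olig2, Enpp6 and Eif2s3y. So were the giant and seven-pass cadherins other than Fat1 and Fat2. The C-type isoforms of the rule had no probe set of their own. Alternatives were other normalizations, filters on low levels, probe set rules, prior settings, array weights, a Y-linked covariate, a replicate block, the plain two-sample test and arrays left out. No label says that replicate numbers pair pups, and the check of their deviations did not settle whether they do.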

Additional observations from a re-analysis of the deposited data

Results flagged for a closer look

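In groups of 4, an array was marked where its gap to the nearest other array took up more of the group's range than Dixon's 95% limit. Of 72 groups examined, 5 were marked, and chance marks about 1 in 20. Pcdh11x read 8.02 in control replicate 1, against 8.29 to 8.33 in the other controls. Pcdhb12 read 5.88 in control replicate 3, against 6.14 to 6.19, and 6.47 in mutant replicate 1, against 6.10 to 6.15. Pcdhb5 read 7.22 in control replicate 2, against 6.83 to 6.88. Pcdhb8 read 5.72 in control replicate 3, against 5.89 to 5.93. The 4 Pcdhb values lie on the side to which the mean of the cluster also moved in those arrays.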

How the results depend on the processing

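The count of 0 called members held in all 22 alternatives in limma or the plain two-sample test, with 3 to 6 members at an unadjusted p under 0.05. Pcdh20, Pcdh7 and Pcdh18 stayed higher, and Pcdh15, Pcdh19 and Pcdh8 lower, in every alternative that tested them. The genes called over all genes numbered 13, and 4 with the Y-linked covariate, 5 with the replicate block, 2 without mutant replicates 1 and 4, and 0 with the plain two-sample test (879 at an unadjusted p under 0.05, and 979 in limma). They numbered 3 to 13 when 1 array was left out, and the cause was not tested. With the replicate block, Pcdh20 had an adjusted p of 0.243. Whether same-numbered pups were paired is not known. Their deviations correlated at -0.012, 0.029, 0.040 and 0.159 for replicates 1 to 4, against -0.100 to 0.071 for pups of different numbers. The Pcdhb median of 0.025 was 0.083 without control replicate 2, -0.025 without mutant replicate 1 and -0.00078 without mutant replicates 1 and 4. The non-clustered median of -0.014 ran from -0.047 (without control replicate 1) to 0.022 (without mutant replicate 2). Partner genes called stayed at 0 in all 9 alternatives run. Members without overlap, an alternative added after the data were seen, numbered 5 after quantile normalization, 4 after cyclic loess and 3 after median centring, against 5, with 2.78%, 2.74% and 2.67% of all genes without overlap. They numbered 7 without mutant replicates 1 and 4, where the smaller group left 12.3% of all genes without overlap. With 4 arrays a group and a median SE of 0.093 over the members, differences of the size seen in Pcdh18 or Pcdh15 did not pass over all genes.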

Other observations

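The probe set that names 14 Pcdha genes together reads the alpha cluster as a whole and stands for no single isoform. Its control levels, from replicate 1 to 4, were 7.27, 7.29, 7.25 and 7.18, and its mutant levels 7.31, 7.07, 7.31 and 7.34. The group means were 7.25 ± 0.05 (SD, n = 4) and 7.26 ± 0.13, and the lowest value, 7.07, was that of mutant replicate 2.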
